A study of Mus musculus with 12 samples.

Results

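The comparison described here is the genotype difference at night in the mouse hippocampus: 3 libraries of mice labelled as a conditional presenilin double knockout (DKO) against 3 of mice labelled WT, 6 of the 12 libraries of the series. All 6 mice or pools were killed at 9 p.m. under pentobarbital (30 mg/kg), and these libraries carry the label Night; the other 6, labelled Day, come from the same genotypes killed at 9 a.m. Genes were joined on their gene IDs, and of the 21878 genes in each table the 12689 with a value of at least 0.5 FPKM in at least 3 of the 12 libraries were tested. FPKM is the number of fragments relative to transcript length and library size, and every log2 difference below is DKO minus WT on the log2(FPKM + 1) scale, which understates the change of genes near or below 1 FPKM. The labels give neither age nor sex and do not state what drives the recombinase of the conditional allele. They also leave out whether the libraries of a group come from different mice, and the p-values then speak only of the scatter among these libraries, which may be technical.

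Presenilins are the alternative catalytic subunits of γ-secretase, a protease in the membrane that also holds nicastrin, an Aph1 subunit and Pen-2 and that cuts Notch receptors, the amyloid precursor protein and many other membrane proteins. In the common form of the double knockout, which the labels do not spell out, the conditional deletion takes place in excitatory neurons of the forebrain of mice that lack Psen2 in all cells; such mice are known for synaptic and memory deficits, later loss of neurons, and activation of microglia and astrocytes. Cells outside that deletion, glia and vessels among them, contribute to bulk hippocampal RNA, and in such RNA fewer cells of a type and less RNA per cell cannot be told apart.

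Psen2 was measured first, as a check of the labels. The gene (gene ID 19165, chr1:180227004-180263467 in GRCm38.p6) stood at 0.486, 0.351 and 0.594 FPKM in Night DKO replicates 1, 2 and 3 and at 3.55, 2.94 and 3.64 in Night WT. All 3 DKO libraries were far below all 3 WT libraries, and the means were 0.477 ± 0.122 and 3.38 ± 0.381 FPKM (SD, n = 3). The log2 difference was -1.57 with a standard error of 0.14 (limma, adjusted p = 0.000785). The value of a gene covers the whole transcript, so RNA left from cells that keep the gene and RNA from undeleted exons are both counted.

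Across all genes the genotype difference at night was small. At a Benjamini-Hochberg adjusted p under 0.05, limma called 3 of 12689 genes (0.0236%), and all 3, Psen2, Snapc1 and Dhrs7, were lower in DKO. An unadjusted p under 0.05 was reached by 1165 genes (9.18%), 480 higher and 685 lower. The 3 DKO libraries lay wholly above the 3 WT libraries for 727 genes (5.73%) and wholly below for 1203 (9.48%). The median absolute log2 difference was 0.07, and 7 genes differed by 1 or more. Of those 7, Gh (2.50), Cers1 (1.78), Cst7 (1.66) and Lag3 (1.05) were higher on average, Rpl34-ps1 (-1.60), Psen2 (-1.57) and Gdf1 (-1.49) were lower, and for all but Psen2 and Lag3 the libraries of both genotypes overlapped. With 3 libraries a group, an exact permutation test of a single gene cannot give a 2-sided p below 0.1. The calls therefore rest on a spread that limma takes from all 12 libraries, day libraries included, and partly shares across genes.

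**Figure D1:**
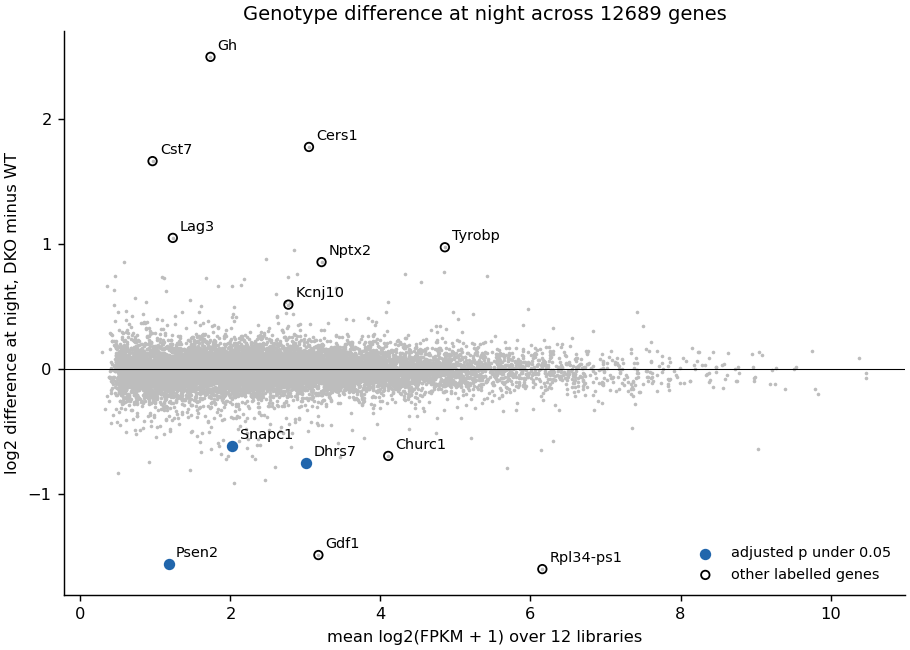
Each point is 1 of 12689 genes, with its mean log2(FPKM + 1) over 12 libraries on the x axis and its log2 difference at night, DKO minus WT, on the y axis. The filled points are the 3 genes called at an adjusted p under 0.05, all below the line at 0; most other genes lie close to that line.

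Snapc1 and Dhrs7 were the called genes that the knockout did not target. Snapc1, a subunit of the complex that starts transcription of small nuclear RNA genes (chr12:73964457-73988966), stood at 2.38, 2.44 and 2.24 FPKM in Night DKO and at 4.21, 4.16 and 4.09 in Night WT. The libraries of each genotype were tightly grouped with a wide gap between them, at 2.36 ± 0.101 against 4.15 ± 0.0612 FPKM (SD, n = 3), and the log2 difference was -0.62 (SE 0.07, limma, adjusted p = 0.00275). Dhrs7, an enzyme of the short-chain dehydrogenase family (chr12:72650353-72664828), stood at 5.87, 4.70 and 5.86 FPKM in DKO and at 9.65, 9.76 and 10.2 in WT, again without overlap. Its log2 difference was -0.75 (SE 0.10, limma, adjusted p = 0.014). The day libraries, which are other samples, showed both genes in the same direction: Snapc1 differed by -0.47 (limma, adjusted p = 0.0123) and Dhrs7 by -0.56 (adjusted p = 0.023). The other subunits of the Snapc1 complex did not share the pattern, since Snapc2, Snapc4 and Snapc5 overlapped between genotypes, and of 10 tested genes of the small nuclear RNA activating list Snapc1 alone was at an unadjusted p under 0.05.

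**Figure D2:**
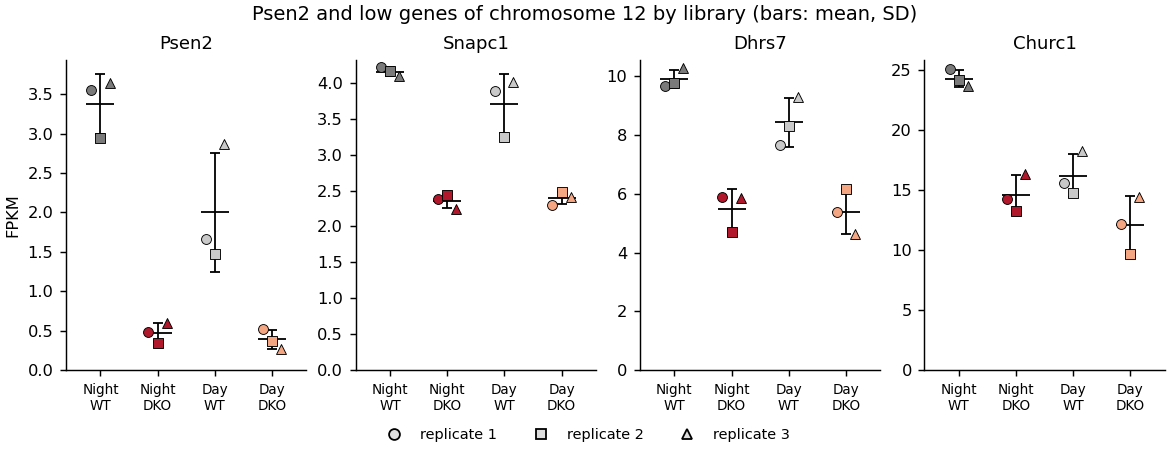
FPKM on a linear y axis from 0 in each of the 12 libraries, by group on the x axis, for Psen2, Snapc1, Dhrs7 and Churc1; symbols mark replicates, and bars show the mean and SD of 3 libraries. The night and day DKO libraries of Psen2, Snapc1 and Dhrs7 all lie below the WT libraries of the same time.

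Snapc1 and Dhrs7 lie near each other on chromosome 12, and other low genes lay close by. Churc1, a zinc-finger gene (chr12:76765538-76783180), stood at 14.2, 13.2 and 16.4 FPKM in DKO and at 25.03, 24.1 and 23.6 in WT. It did not overlap between genotypes, with a log2 difference of -0.70 that missed the threshold (SE 0.12, limma, adjusted p = 0.124). Slc38a6, an amino acid transporter of the same stretch named here after its values were seen, stood at 0.222, 0.201 and 0.331 FPKM in DKO and at 0.754, 0.658 and 0.713 in WT, a difference of -0.45 (limma, adjusted p = 0.194). Gpr135, an orphan receptor named on the same ground, differed by -0.61 (limma, adjusted p = 0.259). By day the differences of Churc1, Slc38a6 and Gpr135 were -0.40, -0.54 and -0.32, and of these that of Slc38a6 was called (limma, adjusted p = 0.0232).

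Around Psen2 on chromosome 1, 5 of 54 genes within 5 Mb (9.26%) were at an unadjusted p under 0.05 at night, beside 9.18% of all genes. Within 10 Mb it was 24 of 116 genes (20.7%), so the larger share came from genes farther than 5 Mb from Psen2. Kcnj10, the inward rectifier channel by which astrocytes take up potassium, lies there, 7.89 Mb from Psen2, and so do Kcnj9, Dcaf8, Copa, Fmn2 and Fcer1g. What the modified chromosome carries around Psen2 is not stated in the labels.

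Other members of γ-secretase and the Notch pathway showed no called difference. Of 7 subunit genes Psen2 was the one called, and it was lower. Ncstn, which encodes nicastrin, ranged from 5.42 to 6.23 FPKM in DKO and from 5.81 to 7.08 in WT. The median of the 7 was -0.09, beside a median of -0.01 over all genes tested. None of 24 tested Notch pathway genes was at an unadjusted p under 0.05, and their median difference was 0.00. App, which encodes the amyloid precursor protein, ranged from 86.5 to 103 FPKM in DKO and from 91.2 to 102 in WT, and none of the 8 genes of the list of the APP family and secretases was at an unadjusted p under 0.05.

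Some neuronal genes were higher in all 3 DKO libraries, and none of them was called at night. Nptx2, a secreted pentraxin that clusters AMPA receptors, stood at 6.96, 12.2 and 13.5 FPKM in DKO and at 5.15, 5.76 and 5.19 in WT. Replicates 2 and 3 were well above WT and replicate 1 was only slightly above it, and the log2 difference was 0.85 (SE 0.18, limma, adjusted p = 0.194). Vgf, a precursor of secreted neuropeptides, stood at 27.8, 27.0 and 25.2 FPKM in DKO and at 21.3, 22.1 and 21.3 in WT, a narrow but complete separation of 0.29 (limma, adjusted p = 0.194). Pcdh8, an activity-regulated protocadherin, differed by 0.38, and Uchl1, an abundant ubiquitin hydrolase of neurons, by 0.34 (limma, adjusted p = 0.194 for both). All 4 were called higher by day, by 1.15, 0.62, 0.58 and 0.31 (limma, adjusted p = 0.0159, 0.00203, 0.00982 and 0.0479). The synaptic genes Rimbp2 (0.36), Iglon5 (0.45) and Gng3 (0.34) and the translocon gene Sec61a2 (0.25) were also higher without overlap, with limma adjusted p between 0.166 and 0.194. These genes were picked by their small p. Of 23 tested presynaptic vesicle genes 1 was higher and 2 were lower without overlap, near the 5.73% and 9.48% of all genes. The median of that list was 0.05.

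Over the whole list of 28 tested immediate early and activity-induced genes, 3 were higher without overlap, Nptx2, Vgf and Dusp6, and Bdnf was lower, beside 5.73% and 9.48% of all genes, with a list median of 0.01. By day 6 of these 28 genes were called higher, beside 1.18% of all genes called. Bdnf, a neurotrophin induced by activity, stood at 3.74, 3.08 and 4.08 FPKM in Night DKO and at 4.52, 4.46 and 4.08 in Night WT, so that DKO replicate 3 and WT replicate 3 nearly met. Its difference was -0.21 at night (limma, adjusted p = 0.458) and 0.39 by day (adjusted p = 0.0469). The interaction of genotype and time did not pass the test for it or for any gene: limma called 0 of 12689, the smallest adjusted p was 0.396, and 1099 genes were at an unadjusted p under 0.05.

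Excitatory neuron and postsynaptic genes overlapped between genotypes throughout. None of 24 was at an unadjusted p under 0.05 or free of overlap, with a median of 0.01; Camk2a ranged from 137 to 144 FPKM in DKO and from 132 to 143 in WT. Among 19 interneuron genes 2 were lower without overlap, near the 9.48% of all genes: Crhbp, a binding protein of corticotropin-releasing hormone, by -0.51, and Npy, a neuropeptide of interneurons, by -0.25 (limma, adjusted p = 0.194 and 0.339). Crhbp stood at 6.85 FPKM in DKO replicate 1, close to the 7.32 of the lowest WT library, and at 4.79 and 4.85 in replicates 2 and 3. The hippocampal markers Prox1 (3.47 to 4.63 FPKM over the 6 night libraries) and Wfs1 (18.8 to 26.1 FPKM) were present in every night library, and the striatal receptor gene Drd2 stood at 0.167 to 0.650 FPKM. None of 22 core clock genes was at an unadjusted p under 0.05 at night, with a median of 0.02, and Per2, a repressor of the clock, stood at 4.42 to 4.78 FPKM in DKO and 3.75 to 4.44 in WT.

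Several genes with roles in metabolism and transport stood apart between genotypes without passing the threshold. Pdk2, a kinase that turns off pyruvate dehydrogenase, stood at 10.2, 9.78 and 9.24 FPKM in DKO and at 7.80, 7.30 and 6.89 in WT, and was higher in all 3 DKO libraries by 0.37 (SE 0.06, limma, adjusted p = 0.113). Kcnj10 stood at 5.96, 6.15 and 7.25 FPKM in DKO and at 4.08, 4.15 and 4.39 in WT, a difference of 0.51 (SE 0.09, limma, adjusted p = 0.124). Kif5a, a kinesin motor of axonal transport, differed by -0.33 (limma, adjusted p = 0.194), Bex1 by -0.49 and the splicing gene Snrpd1 by -0.40 (adjusted p = 0.194 for both). Kif5a and Gng3 overlap other genes in the annotation, and whether reads were assigned by strand is not given in the sources used here.

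Genes of blood, vessel walls and the meninges were low in DKO as groups of single values, with no gene called at night. Of 24 tested meningeal fibroblast and matrix genes, 15 were lower without overlap and none higher, with a median of -0.31; over all genes 9.48% were lower without overlap. Islr, a secreted protein of fibroblasts, stood at 3.65, 3.40 and 4.03 FPKM in DKO and at 6.71, 5.67 and 5.49 in WT, and Slc6a20a, a proline transporter of the meninges, at 5.18, 5.29 and 5.49 in DKO and 8.56, 9.63 and 8.07 in WT. Both were lower in all 3 DKO libraries, by differences of -0.57 and -0.62 (limma, adjusted p = 0.244 and 0.274). Of 14 smooth muscle and pericyte genes 8 were lower and 1 was higher without overlap, with a median of -0.25. Tagln, an actin-binding protein of smooth muscle, stood at 2.90, 3.11 and 3.29 FPKM in DKO and at 7.29, 5.86 and 4.46 in WT. Of 7 blood genes 4 were lower without overlap, with a median of -0.49: Hbb-bt, a β-globin gene with a near-identical copy, stood at 8.99, 9.20 and 9.49 FPKM in DKO and at 17.2, 14.0 and 15.99 in WT, a difference of -0.71 (limma, adjusted p = 0.124). The summed lists moved in all 3 DKO libraries alike: relative to the Night WT mean, the mean log2 level of the meningeal list was -0.34, -0.31 and -0.40 in replicates 1, 2 and 3 and that of the blood list -0.54, -0.37 and -0.41. By day 7 meningeal genes and 5 smooth muscle genes were called lower, beside 49 of all 12689 genes. Whether the samples differed in how much meninges and blood they held was not tested.

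Choroid plexus, which lies against the hippocampus, did not separate the genotypes at night. None of its 19 tested genes was free of overlap, and Ttr, the transthyretin gene that marks its epithelium, ranged from 1832 to 2901 FPKM in DKO and from 1303 to 3032 in WT. Its list mean relative to the Night WT mean was 0.24, -0.24 and -0.13 in the DKO replicates and 0.32, -0.54 and 0.22 in the WT replicates.

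Myelin genes were low in DKO, most of all in replicate 2. Of 23 tested genes 8 were lower without overlap and none was higher, beside 9.48% and 5.73% of all genes, with a median of -0.25, and none was called. Opalin, a membrane protein of myelin loops, stood at 8.39, 7.29 and 6.83 FPKM in DKO and at 10.4, 13.02 and 12.2 in WT, without overlap and with a difference of -0.60 (limma, adjusted p = 0.194). Cnp, an enzyme of myelin, differed by -0.33 and Mog, a surface protein of myelin, by -0.30 (limma, adjusted p = 0.355 and 0.406). The list mean was -0.07 in DKO replicate 1, -0.40 in replicate 2 and -0.21 in replicate 3 relative to the Night WT mean, whereas the WT libraries lay between -0.07 and 0.10.

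**Figure D3:**
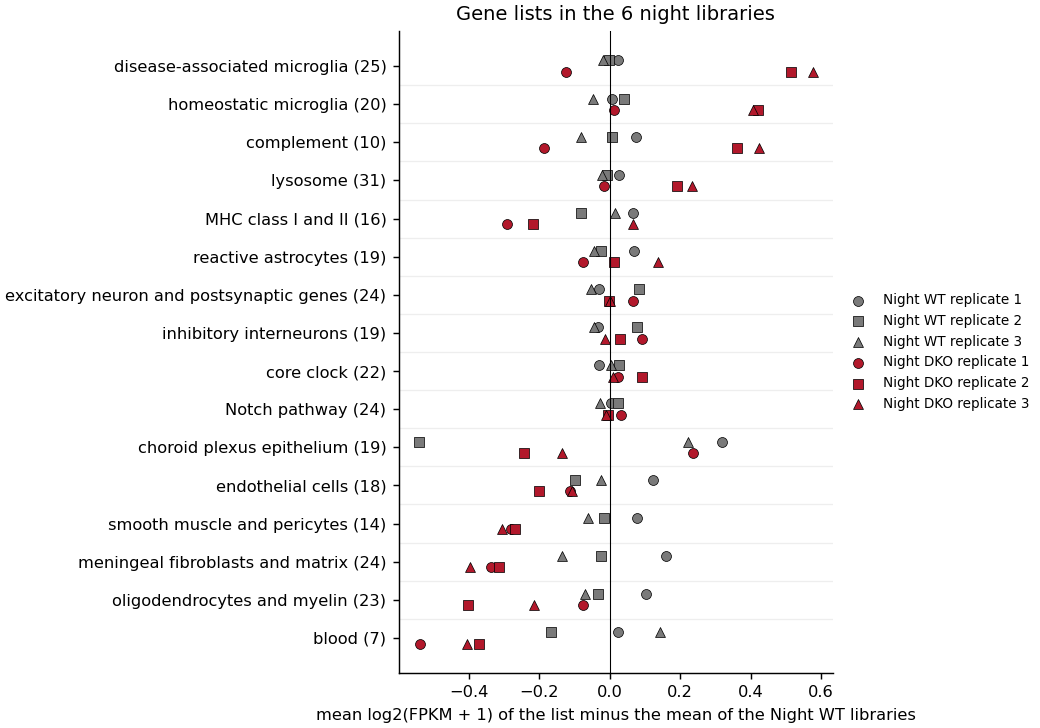
Mean log2(FPKM + 1) of each gene list (number of tested genes in brackets) in the 6 night libraries, minus the mean of the 3 Night WT libraries, on the x axis; symbols mark replicates and colours genotypes. Night DKO replicate 1 lies with or below the WT libraries for the microglial and complement lists while replicates 2 and 3 lie above 0.3, and all 3 DKO libraries lie below the WT libraries for the meningeal, smooth muscle and blood lists.

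The spread among the Night DKO libraries was typical for most genes and large for microglial genes and some other lists. The median over genes of the SD of log2(FPKM + 1) was 0.0806 in Night DKO, against 0.0792 in Night WT, 0.0921 in Day DKO and 0.0843 in Day WT. A range of 1 or more on the log2 scale was found for 35 genes in Night DKO, 40 in Night WT, 67 in Day DKO and 60 in Day WT. In 19 of the 35 genes replicate 1 was low and stood apart from replicates 2 and 3, and 13 of those 19 are on the microglial or complement lists. These lists, which may share members, held 25 disease-associated, 20 homeostatic, 20 Fc and pattern receptor and 10 complement genes of the 12689 tested. The median SD of the 25 disease-associated microglial genes was 0.274 in Night DKO and 0.0758 to 0.119 in the other groups, and that of the 20 homeostatic microglial genes was 0.188 against 0.0825 to 0.108. Lists outside microglia were widest in Night DKO too, among them MHC class I and II (0.243 against 0.127 to 0.149), interneurons (0.181 against 0.0957 to 0.144) and myelin (0.178 against 0.0889 to 0.137). The choroid plexus list was narrowest there (0.260 against 0.495 to 0.897).

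Night DKO replicate 1 held microglial activation genes at the level of WT libraries. Tyrobp, the signalling adaptor of several microglial receptors, stood at 19.8 FPKM in replicate 1 and at 56.6 and 59.99 in replicates 2 and 3, with WT libraries at 18.4, 22.9 and 19.96. Trem2, the lipid-sensing receptor that signals through Tyrobp, stood at 3.30, 11.9 and 8.43 FPKM in DKO and at 3.20, 3.43 and 3.54 in WT. In both genes replicate 1 lay inside or next to the WT range and replicates 2 and 3 were far above every WT library. Cst7, a cystatin of activated microglia, stood at 0.0274, 6.37 and 5.69 FPKM in DKO and at 0.194, 0.183 and 0.132 in WT, and C1qa, a chain of the first complement component, at 19.2, 48.3 and 54.2 in DKO and 21.5, 23.9 and 18.6 in WT. Replicate 1 was thus below all WT libraries for Cst7 and within their range for C1qa. With all 3 libraries the log2 differences of Tyrobp (0.97), Trem2 (0.87), Cst7 (1.66) and C1qa (0.78) did not pass the test (limma, adjusted p = 0.339, 0.382, 0.373 and 0.425).

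The same library was the low one for 2 myeloid genes that it held below the WT range, and for an astrocyte gene. Cd52 stood at 0.626, 8.45 and 7.18 FPKM in DKO and at 3.77, 1.99 and 2.52 in WT, and Lyz2, the lysozyme of myeloid cells, at 2.45, 11.6 and 12.8 in DKO and 7.02, 5.84 and 6.88 in WT. Gfap, the filament protein of reactive astrocytes, stood at 34.4, 63.3 and 79.2 FPKM in DKO and at 36.4, 33.9 and 28.6 in WT, with replicate 1 among the WT values. Markers of resting microglia overlapped between genotypes in the night libraries: P2ry12 ranged from 6.14 to 7.24 FPKM and Tmem119 from 5.75 to 7.41. Genes of the border macrophages were low, with Mrc1 at 0.796 to 1.27 FPKM and Cd163 at 0.506 to 0.687, and none of the 7 tested genes of that list was at an unadjusted p under 0.05.

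Replicate 1 lay with the rest of its group for other genes, though not for all. Psen2, Snapc1, Dhrs7 and Churc1 were as low in it as in replicates 2 and 3, Kcnj10, Vgf and Pcdh8 were above all WT libraries, and its meningeal and blood lists were as low as theirs. It stood apart from them on the myelin list, as given above, and on the glucocorticoid-responsive list, at 0.20 relative to the Night WT mean against -0.04 and -0.11 in replicates 2 and 3. The heat shock list stood at 0.09 in it against -0.13 and -0.11. Over the 49 genes called lower by day, its median log2 level relative to the Night WT mean was -0.23, beside -0.27 and -0.22 in replicates 2 and 3. Over 31 microglial or complement genes that were higher by day at an unadjusted p under 0.05, a group chosen with these results in view, the medians were 0.00, 0.73 and 0.63. All 3 Day DKO libraries held Tyrobp at 37.3 to 41.6 FPKM and Cst7 at 1.92 to 2.59, above the Day WT libraries (17.1 to 20.7 and 0 to 0.0543).

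**Figure D4:**
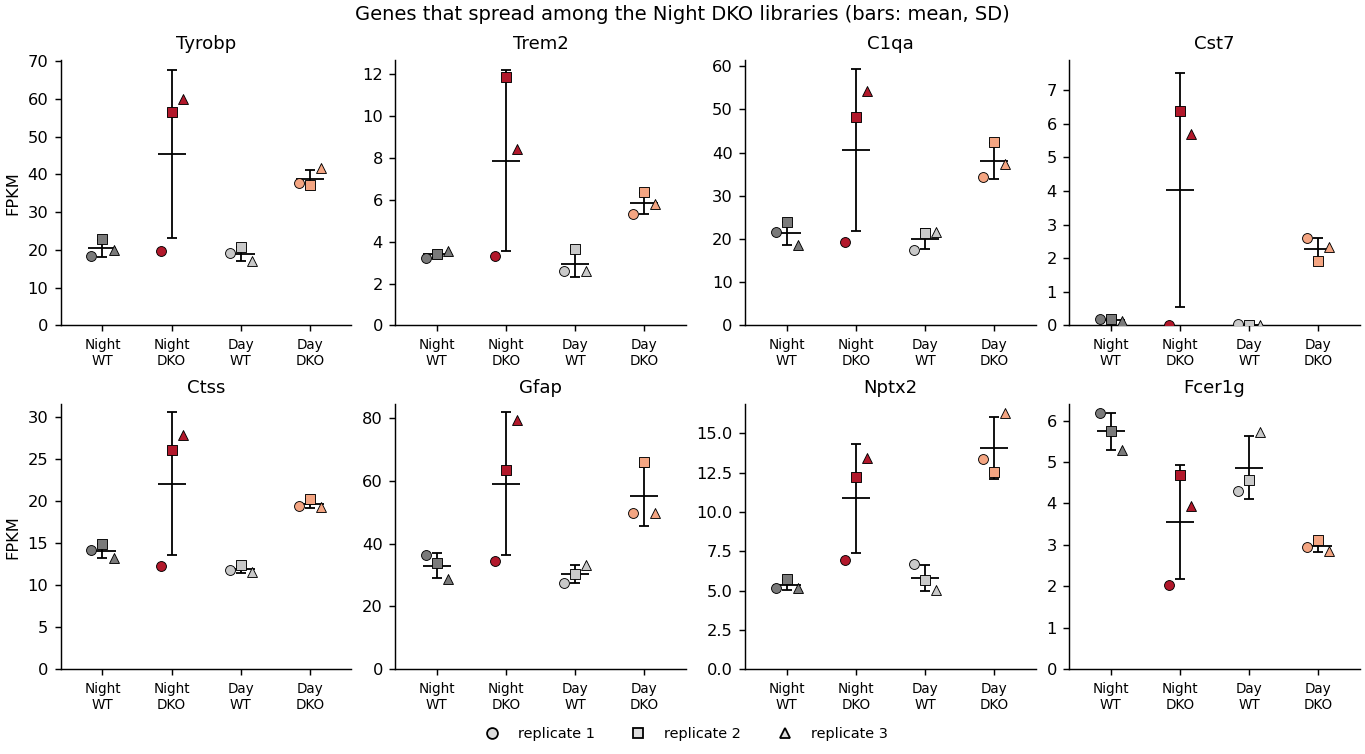
FPKM on a linear y axis from 0 by group on the x axis for 8 genes; symbols mark replicates, and bars show the mean and SD of 3 libraries. The circle of replicate 1 in Night DKO lies at the WT level for Tyrobp, Trem2, C1qa, Cst7, Ctss and Gfap, between the groups for Nptx2, and lowest of all libraries for Fcer1g.

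Without Night DKO replicate 1, limma called 38 of 12689 genes at night (0.299%), 33 higher and 5 lower. Of the 33 higher genes, 24 are on a microglial or complement list. Those 4 lists, which may share members, held 25, 20, 20 and 10 of the 12689 tested genes. In 23 of the 33 replicate 1 was at or below the highest WT library, which leaving that library out favours. By day 27 were also higher at an unadjusted limma p under 0.05, where 17% of all genes were at that threshold in either direction, and 4 were called higher. Tyrobp then differed by 1.48 (limma, adjusted p = 2.37e-05), Cst7 by 2.59 (adjusted p = 2.76e-08), Trem2 by 1.33 (adjusted p = 0.0005) and C1qa by 1.23 (adjusted p = 0.000392). Laptm5, Cd68, Ctss and Ctsz, genes of the lysosome, were among the 33, and so were Gfap, Nptx2 and Kcnj10. The 5 lower genes were Psen2, Snapc1, Dhrs7, Crhbp and Hist2h3b. That library was singled out after its values were seen, so the 38 calls describe 2 libraries against 3 and are no test of the condition.

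A DNA word was looked for in the promoters of these 33 genes, because many of them are expressed by microglia and the factor PU.1, which binds GGAA cores, governs that cell type. The 33 genes came from a fit chosen after the data were seen, and the word was picked for their cell type. The shares below are therefore no test. The word GAGGAAG, read on both strands, occurred in the 250 bases before the gene start in 6 of the 23 genes with a RefSeq promoter sequence (26.1%), against 12% of all 27025 genes with one and 12.8% of the tested genes. Stretches from the promoters of 4 such genes (RefSeq, GRCm38.p6) are shown so that the match can be seen in its surroundings; capitals mark the word or its reverse complement, and a match is a description of letters and no evidence of binding. C1qc is at chr4:136893042-136893164 on the minus strand, Trem2 at chr17:48346300-48346400 on the plus strand, Fcrls at chr3:87263602-87263728 on the minus strand and Laptm5 at chr4:130913217-130913315 on the plus strand.
C1qc: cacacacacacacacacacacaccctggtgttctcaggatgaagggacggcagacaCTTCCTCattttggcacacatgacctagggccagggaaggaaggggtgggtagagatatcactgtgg
Trem2: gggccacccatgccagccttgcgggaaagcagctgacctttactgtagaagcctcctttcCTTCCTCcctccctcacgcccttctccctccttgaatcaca
Fcrls: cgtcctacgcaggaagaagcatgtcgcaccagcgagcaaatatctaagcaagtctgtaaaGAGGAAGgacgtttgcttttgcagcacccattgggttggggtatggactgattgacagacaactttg
Laptm5: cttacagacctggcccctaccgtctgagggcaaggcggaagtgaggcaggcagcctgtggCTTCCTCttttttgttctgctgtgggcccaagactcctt

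Not all immune genes followed the microglial pattern. Fcer1g, the Fc receptor γ chain that microglia use beside Tyrobp, stood at 2.03, 4.69 and 3.93 FPKM in DKO and at 6.19, 5.75 and 5.28 in WT, lower in every DKO library with a difference of -0.61 (limma, adjusted p = 0.309). The class II genes H2-Ab1, H2-Aa and H2-Eb1, which present antigen, were lower without overlap by differences of -0.72, -0.65 and -0.50 (limma, adjusted p = 0.279, 0.309 and 0.309). Of 16 tested MHC class I and II genes 3 were lower and 1 was higher without overlap, beside 9.48% and 5.73% of all genes. The median of that list was -0.02, and its mean relative to the Night WT mean was -0.29, -0.22 and 0.07 in DKO replicates 1, 2 and 3. Of 10 complement genes, C1qa, C1qb, C1qc and C4b were those high in replicates 2 and 3, whereas Serping1, an inhibitor of the first component, stood at 2.57, 2.53 and 2.40 FPKM in DKO and at 4.798, 4.15 and 3.70 in WT (-0.57, limma, adjusted p = 0.259).

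The other wide genes of the Night DKO group were of mixed kinds. Gh and Prl, hormones of the pituitary, followed each other: Gh stood at 23.2, 9.73 and 0.555 FPKM and Prl at 2.19, 1.40 and 0.0499 in DKO replicates 1, 2 and 3, with Night WT at 0.0614 to 0.868 and 0.0482 to 0.180. Avp, the vasopressin gene of the hypothalamus, was high in replicate 3 instead, at 3.64 FPKM against 0.365 in both others. Gdf1 and Cers1, which share a transcript region in the annotation, were high in turn: Gdf1 stood at 27.7, 15.5 and 0.106 FPKM and Cers1 at 2.54, 10.6 and 24.7, so the split of reads between them is uncertain. The near-identical pair Tmsb15b2 and Tmsb15l was lowest in replicate 2, at 0.355 and 0.506 FPKM, and how reads were shared between these genes is uncertain too. Several genes of this paragraph were also wide by day. The SD of log2(FPKM + 1) of Gh was 2.03 in Night DKO, 1.53 in Day DKO and 2.49 in Day WT. That of Gdf1 was 2.51 in both Night DKO and Day DKO, and that of Avp was 1.02 in Night DKO and 1.06 in Day DKO.

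The series title names long noncoding RNA. Of the genes tested, 14 have that biotype in the reference annotation. At night none of them was called and 1 was at an unadjusted p under 0.05. All 21878 genes are listed with a messenger RNA record, so these values say little about long noncoding RNA.

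Night WT replicate 1 differed from the other 11 libraries in genes of the Y chromosome. Ddx3y stood at 0.0225 FPKM in it and at 6.83 to 8.56 in the others, and Kdm5d at 0 against 1.93 to 2.98. Without that library limma called 2 genes at night, Psen2 (-1.54, adjusted p = 0.00868) and Snapc1 (-0.61, adjusted p = 0.029), and Dhrs7 (-0.77) had an adjusted p of 0.0773. Without both that library and Night DKO replicate 1, an alternative added after the data were seen, limma called 36 genes, 29 higher and 7 lower.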

How the data were processed

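Libraries of hippocampal total RNA were stranded and depleted of ribosomal RNA, per the labels' protocols. The authors deposited 1 table of FPKM values per library, a unit read from the values. The submitters' processing notes name build GRCm38.p6. Aligner, quantifier and annotation release: not given in the sources used here. Without counts the depth is unknown. The FPKM of the night libraries summed to between 165818 and 175692. The reference annotation held 21723 of the gene IDs, and 27 symbols turned into dates were restored.

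Values were transformed to log2(FPKM + 1), a pseudocount of 1, and fitted with limma 3.58.1 in R 4.3.3: 1 mean per group over all 12 libraries, an intensity-trended variance prior, and Benjamini-Hochberg adjustment over 12689 genes, 2-sided at 0.05. The filter and the transform come from the rule of the comparison. The members, the 34 gene lists (645 entries, 584 tested) and the named-gene rule were chosen with earlier results of these data known, so lists got no test and are given by counts and medians. The rule named Psen2 and called genes; the 12 higher and 12 lower genes of smallest p without overlap and with a mean log2 of at least 1; the 15 widest genes in Night DKO and 10 in Night WT; up to 6 genes a list and the defining markers; genes within 10 Mb of Psen2 at an unadjusted p under 0.05; and genes called without 1 Night DKO library. Slc38a6, Gpr135, Rpl34-ps1, Rnaset2b, Prl, Cers1 and Gdf1 were named outside it, after their values were seen. The 25 alternatives changed the pseudocount, filter, scaling, libraries, block, weights, prior or a choroid plexus covariate. Part of what the rule took is not reported here. The fit was tested on simulated data.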

Additional observations from a re-analysis of the deposited data

Results flagged for a closer look

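For 3 of the named genes every DKO library lay on one side of WT at night and on the other side by day. Pdk2 was higher in DKO at night, by 0.37 on the log2 scale, and lower by day, with a difference of -0.10 (unadjusted p of the interaction 0.000105, adjusted p = 0.396, limma). Bdnf was lower at night, with a difference of -0.21, and higher by day, by 0.39. Hspa8, a heat shock cognate chaperone, was lower at night, with a difference of -0.10, and higher by day, by 0.18. The interaction test of limma passed for none of the 3. Over all genes tested, 441 had no overlap between genotypes at both times, 358 of them in the same direction and 83 in opposite directions. Groups of 3 libraries were too small for a test of single libraries.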

How the results depend on the processing

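The night count of 3 called genes was 2 without a filter on low values, 3 under both other pseudocounts, the stricter filter, median-of-ratios scaling and an untrended prior, 4 after quantile normalization, after rescaling to TPM and with the choroid plexus covariate, 5 with quality weights and 15 with only the 6 night libraries. Leaving out 1 library gave 2 to 38, with 38 without Night DKO replicate 1, 6 when Day WT replicate 1 and 5 when Day DKO replicate 2 was left out; leaving out Night DKO replicate 1 and Night WT replicate 1 together gave 36. The replicate block gave 5. Deviations of libraries with the same number correlated at 0.07, 0.18 and -0.03, so the numbers were not taken to pair them. Psen2 and Snapc1 were called under all 25 alternatives and Dhrs7 under 20, with an adjusted p of up to 0.101. The day count of 150 became 26 without a filter, 96 after quantile normalization, 4 with the choroid plexus covariate and 13 to 205 leaving out 1 library (13 and 60 for Day WT replicates 2 and 1, 19 and 23 for Day DKO replicates 3 and 2, 85 for Night WT replicate 3). The interaction count of 0 ranged from 0 to 1, with 1 without Day WT replicate 3. The median SD among Night DKO libraries, 0.0806, was 0.103 and 0.0916 with pseudocounts of 0.1 and 0.5, 0.0985 after rescaling to TPM, 0.066 without a filter and 0.0633 to 0.0674 leaving out 1 of its libraries. The difference of Lyz2 (0.16) ranged from -0.20 to 0.80 leaving out 1 library, negative without Night DKO replicate 2 (-0.14) or 3. The cause of these shifts was not tested. Of 1769 differences of 71 named genes, 5 (all Dhrs7) lost their call and 71 gained one, most of them without Night DKO replicate 1. Of 272 list medians, 7 moved by more than the spread between libraries, all of the γ-secretase, Notch or small nuclear RNA lists. The 272 do not cover every list under all 25 alternatives. Leaving out Night DKO replicate 1 moved the night median of the disease-associated microglial list from 0.16 to 0.34. That of the homeostatic list went from 0.23 to 0.35 and that of choroid plexus from -0.05 to -0.20. The meningeal median moved less, from -0.31 to -0.34. The scalings moved the median of all genes by less than 0.1. Depth is unknown, so no limit of detection can be given.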

Other observations

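A pair of genes split the WT libraries of both times. Rpl34-ps1, a ribosomal protein pseudogene with near-identical copies, stood at 210, 40.9 and 219 FPKM in Night WT replicates 1, 2 and 3 and at 189, 42.6 and 329 in Day WT, while the 6 DKO libraries lay between 31.0 and 45.8. Rnaset2b, a ribonuclease gene with a near-identical copy on the same chromosome, stood at 7.60, 2.83 and 6.01 FPKM in Night WT and at 4.84, 2.26 and 6.70 in Day WT, while the DKO libraries lay between 1.49 and 2.37. In both genes WT replicate 2 of each time was close to the DKO libraries.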
